A study of Mus musculus with 24 samples.

Results

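Messenger RNA of the mouse olfactory epithelium after exposure to cis-3-hexenol, an unsaturated alcohol with the smell of cut leaves, was compared with that of epithelium exposed to no odor. The comparison takes the 3 cis-3-hexenol libraries and the 3 no-odor control libraries of the same batch (labelled OC condition), that is 6 of the 24 libraries of the series, and it covers all genes. Of 57010 genes in the count table, 19175 had enough counts to be tested. The whole study exposed mice to single odorants or to binary mixtures and sequenced the epithelium; the 3 octanal libraries and the 3 libraries of the 1:1 mixture of octanal with cis-3-hexenol share the table and the controls.

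In the cis-3-hexenol group, wildtype male C57BL/6J mice aged 8 weeks sat alone in chambers free of odor for 4 h and then for 90 min with 10 µL of the undiluted odorant on filter paper. In the control group, mice of the same genotype, strain, sex and age had the same habituation and time with an empty filter paper. No group carries a mutant allele. In all groups the tissue was taken right after exposure into buffers with cycloheximide, an inhibitor of translation, and RNA came from a homogenate cleared by centrifugation and treated with detergent. Each group is described as 3 biological replicates, and whether animals were pooled is not stated. The tissue is a mixture of neurons, supporting cells, glands, stem cells, glia, vessels and attached bone, and in such bulk RNA fewer cells of a type and less RNA per cell cannot be told apart.

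An odorant is detected by olfactory sensory neurons, each of which carries 1 kind of odorant receptor out of a very large gene family. Receptor binding activates a G protein and adenylyl cyclase, and cyclic AMP opens an ion channel in the cilia. Repeated or lasting activity changes the neuron's transcripts: immediate early genes respond within minutes, and a group of slower genes that includes Lrrc3b, Kirrel2 and S100a5 follows how active the neuron has been. Sustentacular cells and glands beside the neurons hold enzymes that break down inhaled chemicals, and alcohols are oxidised by alcohol and aldehyde dehydrogenases.

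Total counts ran from 19003768 to 21429023 in the cis-3-hexenol libraries and from 20730291 to 23576144 in the controls, and levels are given as CPM, read counts relative to the library's total after TMM scaling. The controls were less alike than the cis-3-hexenol libraries. Over genes, chi-square per gene between pairs of libraries was 5.27 to 8.35 within the cis-3-hexenol group and 16.7 to 112 within the controls, so that no pair agreed within sampling noise. Control 3 stood apart by secreted gland proteins: the 25 gland genes tested summed to 73213 CPM there, against 24628 to 28335 CPM with cis-3-hexenol and 25914 and 29138 CPM in controls 1 and 2. Markers of the tissue were high in all 6 libraries, with Omp, the marker of mature olfactory neurons, at 10193 CPM or more.

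With cis-3-hexenol, 1066 genes rose and 1275 fell (edgeR quasi-likelihood test, Benjamini-Hochberg adjusted p under 0.05), that is 5.56% and 6.65% of the genes tested, or 12.2% together. Most differences were small, with a median absolute log2 fold change of 0.40 among called genes, 41 genes over 2-fold higher and 65 over 2-fold lower. The 3 cis-3-hexenol libraries lay above all 3 controls for 2896 genes (15.1%) and below all 3 for 2975 (15.5%), 30.6% together. Leaving out 1 library at a time, 193 of the 1066 and 291 of the 1275 kept their call in all 6 fits, 2.52% of the genes tested. The number of calls was 533 without cis-3-hexenol 3, 1140 without cis-3-hexenol 2, 1222 without cis-3-hexenol 1, 1469 without control 1, 1498 without control 3 and 3150 without control 2. A call is named stable where it held in all 6 of these fits, and for other calls the range or the highest adjusted p over the 6 fits is given. Changes between groups are log2 fold changes, cis-3-hexenol over no odor. The 5.56% higher and 6.65% lower of all genes are the background for every count of rises and falls in a gene list below.

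Most genes of a list that follows the activity of olfactory neurons rose after 90 min of cis-3-hexenol. Of 7 such genes, 5 rose, against 5.56% of all genes, and 0 fell. Their median log2 fold change was 0.86, against -0.01 over all genes tested. The list was written with earlier results of these data known, so its count is no independent test of a response to cis-3-hexenol. Lrrc3b (ENSMUSG00000045201), a leucine-rich repeat membrane protein, had 130.5, 119 and 121 CPM in the 3 cis-3-hexenol libraries, against 74.7, 52.7 and 61.1 CPM in the 3 control libraries. Each cis-3-hexenol library exceeded every control (log2 fold change 0.97, SE 0.14, adjusted p = 0.00312). Kcng1, a silent subunit of voltage-gated potassium channels, had 30.5, 25.3 and 28.6 CPM with cis-3-hexenol, against 19.8, 9.93 and 10.7 CPM in controls, and Sema7a, a membrane-anchored semaphorin of axon guidance and synapse formation, had 14.4, 12.7 and 13.5 CPM with cis-3-hexenol, against 8.81, 8.20 and 5.21 CPM in controls. Both also separated the groups (log2 fold change 1.05, SE 0.21, adjusted p = 0.00788 for Kcng1 and log2 fold change 0.86, SE 0.16, adjusted p = 0.00579 for Sema7a), and these 3 calls were stable.

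Control 1 was the highest control for every one of the 7 genes. Pcp4l1, a small protein related to the calmodulin binder Pcp4, had 1864, 1648 and 1799.9 CPM with cis-3-hexenol, against 1549, 1158 and 1021 CPM in controls (log2 fold change 0.51, SE 0.12, adjusted p = 0.0171), and its call ended without cis-3-hexenol 1 or 3 (adjusted p 0.00433 to 0.0701). Pcdh10, a protocadherin of axon sorting, rose (log2 fold change 0.93, SE 0.27, adjusted p = 0.036), and its call held in 1 of the 6 fits, that without control 1 (adjusted p 0.00417 to 0.139). S100a5, a calcium-binding protein, had 1034, 1012 and 931 CPM with cis-3-hexenol, against 996, 768 and 710.1 CPM in controls, and Kirrel2, an adhesion molecule that sorts axons, had 439.5, 362 and 429.9 CPM with cis-3-hexenol, against 638, 256 and 275 CPM in controls. Neither was called with all libraries (log2 fold change 0.27, SE 0.11, adjusted p = 0.116 for S100a5 and log2 fold change 0.07, SE 0.25, adjusted p = 0.884 for Kirrel2). Without control 1 all 7 genes were called higher, S100a5 with adjusted p = 0.013 and Kirrel2 with adjusted p = 0.0121. Without control 2 or control 3 the fold change of Kirrel2 was below 0 on the log2 scale.

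**Figure D1:**
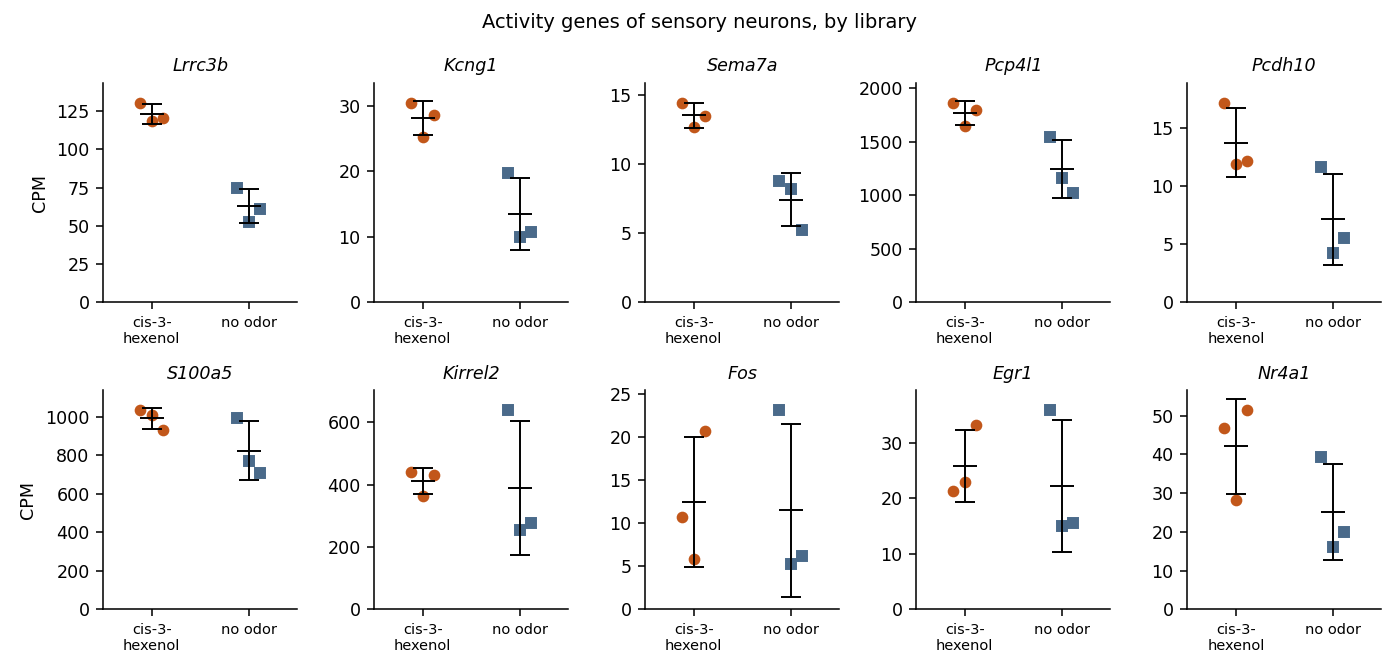
Levels of 10 activity genes in CPM (linear axes from 0) in the 3 cis-3-hexenol libraries (circles) and the 3 no-odor libraries (squares), with bars for the mean ± SD. Lrrc3b, Kcng1, Sema7a, Pcp4l1 and Pcdh10 separate the groups, while 1 no-odor library, control 1, is the highest of the controls for Kirrel2, Fos, Egr1 and Nr4a1.

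Immediate early genes did not move together. Of 37 tested, 2 rose and 3 fell, near the 5.56% and 6.65% of all genes, and their median log2 fold change was 0.04. None of these calls was stable. Without control 1, 5 rose and 0 fell, with a median of 0.03, where 614 of all 19468 genes tested rose and 855 fell. Without cis-3-hexenol 1 or 3, 0 were called, so the count and direction of calls depended on single libraries. Fos, a subunit of the AP-1 transcription factor, had 10.7, 5.88 and 20.6 CPM with cis-3-hexenol, against 23.1, 5.26 and 6.16 CPM in controls, and Egr1, a zinc finger factor, had 21.3, 22.9 and 33.1 CPM with cis-3-hexenol, against 35.8, 15.0 and 15.6 CPM in controls. The groups overlapped widely, and cis-3-hexenol 3 and control 1 were the highest of their groups for both genes (log2 fold change 0.10, SE 0.45, adjusted p = 0.919 for Fos and log2 fold change 0.21, SE 0.27, adjusted p = 0.654 for Egr1). The orphan nuclear receptor Nr4a1 had 46.7, 28.1 and 51.4 CPM with cis-3-hexenol, against 39.3, 16.2 and 20.0 CPM in controls (log2 fold change 0.73, SE 0.32, adjusted p = 0.141). Dusp1, a phosphatase that switches off MAP kinases, rose (log2 fold change 0.32, SE 0.08, adjusted p = 0.0197), as did Dusp6, a phosphatase of ERK (log2 fold change 0.24, SE 0.06, adjusted p = 0.0255). Leaving out 1 library gave adjusted p 0.0182 to 0.109 for Dusp1 and 0.0299 to 0.0916 for Dusp6. The neuronal factor Npas4 fell at levels of 0.209, 0.148 and 0.461 CPM with cis-3-hexenol, against 0.856, 1.06 and 0.568 CPM in controls (log2 fold change -1.56, SE 0.47, adjusted p = 0.0427). The AP-1 subunit Fosl2 (log2 fold change -0.50, SE 0.14, adjusted p = 0.028) and the growth arrest gene Gadd45g (log2 fold change -0.26, SE 0.08, adjusted p = 0.0407) also fell. Each of these 3 calls held in 1 of the 6 fits, with adjusted p up to 0.16 for Npas4, 0.111 for Fosl2 and 0.136 for Gadd45g.

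Odorant receptors were higher as a family with cis-3-hexenol. Their share of all counts was 0.471%, 0.488% and 0.520% in the cis-3-hexenol libraries, against 0.379%, 0.418% and 0.317% in the controls. The groups did not overlap, with means of 0.493% ± 0.0251 and 0.371% ± 0.0510 (SD, n = 3 each), a difference of 0.122 percentage points (exact two-sided permutation test, p = 0.1, the smallest that 3 against 3 allows). Of 1093 protein-coding receptor genes in the table, 923 were tested, and 814 of them (88.2%) had a positive fold change, against 49.1% of all genes. The test called 87 receptors higher (9.43%, against 5.56% of all genes) and 0 lower, and the 3 cis-3-hexenol libraries lay above all 3 controls for 296 (32.1%, against 15.1% of all genes). The count of calls was 18 without cis-3-hexenol 3, 39 without control 3, 44 without cis-3-hexenol 2, 54 without control 1, 60 without cis-3-hexenol 1 and 171 without control 2, and 16 calls were stable. After offsets for transcript length and GC content, 33 of the 923 were called higher, beside 835 of all 19175 genes. Calls were then no more frequent among receptors than among all genes, while the receptors' median log2 fold change was 0.30. The median GC content of the receptors was 38.5%. The receptors not tested reached at most 0.939 CPM in any of the 6 libraries. The 10th and 90th percentiles of the receptors' log2 fold changes were -0.02 and 0.94, and their median was 0.42.

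The receptor with the smallest p was Olfr1463, with 33.5, 33.3 and 34.9 CPM in the 3 cis-3-hexenol libraries, against 18.1, 25 and 19.7 CPM in the 3 control libraries. Its cis-3-hexenol libraries lay close together and above every control (log2 fold change 0.70, SE 0.10, adjusted p = 0.00289). Olfr1110 had 26.9, 23.2 and 24.3 CPM with cis-3-hexenol, against 16.0, 15.5 and 15.9 CPM in controls, and Olfr309 had 30.1, 34.7 and 33.3 CPM with cis-3-hexenol, against 22.3, 23.6 and 16.5 CPM in controls. Next by p came Olfr183 (log2 fold change 0.62, SE 0.11, adjusted p = 0.00466), Olfr1395 (log2 fold change 0.57, SE 0.10, adjusted p = 0.0049) and Olfr1448 (log2 fold change 0.90, SE 0.16, adjusted p = 0.00529). All 6 calls were stable, and in none of the 6 genes did the groups overlap. Among receptors with non-overlapping groups and a mean count of at least 20, the largest called rises stood at low levels: Olfr19 had 1.99, 2.42 and 2.44 CPM with cis-3-hexenol, against 0.326, 1.01 and 0.284 CPM in controls (log2 fold change 2.09, SE 0.56, adjusted p = 0.0267), and Olfr812 followed (log2 fold change 1.77, SE 0.49, adjusted p = 0.0307). These calls held in 1 and 2 of the 6 fits (adjusted p 0.00879 to 0.0911 for Olfr19 and 0.0045 to 0.142 for Olfr812). Olfr1086, at 1.52, 1.29 and 1.57 CPM with cis-3-hexenol, against 0.489, 0.434 and 0.568 CPM in controls, was the one stable call among the 8 receptors in the list of largest rises (log2 fold change 1.54, SE 0.31, adjusted p = 0.00736). Others of that list, Olfr68, Olfr467, Olfr895, Olfr609 and Olfr1052, had log2 fold changes of 1.64, 1.36, 1.32, 1.31 and 1.26 and lost the call in 1 to 6 of the fits.

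Calls were most frequent among the receptors with the highest levels. Among the 231 receptors with the highest levels (5.08 to 121 CPM), 54 were called and the median standard error of the log2 fold change was 0.15, and among the 231 with the lowest levels (0.155 to 1.24 CPM) 8 were called and the median standard error was 0.46. The 231 and 230 receptors between them had 6 calls at a median standard error of 0.33 and 19 calls at one of 0.25, in order of rising level. The median log2 fold change did not follow the same order: it was 0.36 at the highest levels and 0.48 at the lowest. Among 6006 other genes in the middle range of receptor levels, from 0.66 to 9.82 CPM, 43.9% had a positive fold change, 1.43% were called higher and the median log2 fold change was -0.05. Neighbouring receptor genes have close relatives, and reads shared between them may have been split by the counting, so single receptor values are uncertain to that extent.

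Receptors fall into class I, the class shared with fish and expressed mostly in the dorsal epithelium, and class II, the larger mammalian class. Of 106 class I receptors tested, 105 had a positive fold change, with a median of 0.73, against 693 of 798 class II receptors with a median of 0.38. The test called 9 of the 106 (8.49%) and 76 of the 798 (9.52%). Class I receptors summed to 308, 325 and 397 CPM in the cis-3-hexenol libraries, against 134, 293 and 215 CPM in the controls, and control 1 was the lowest library. The 3 class I receptors with the smallest p were Olfr616, Olfr609 and Olfr610. Olfr616 had 34 counts in the cis-3-hexenol libraries together and 3 in the controls, a ratio of 12.7 after scaling for depth (95% exact interval from 3.99 to 64.6, counting error only). Olfr609 had 4.08, 4.60 and 6.13 CPM with cis-3-hexenol, against 1.26, 2.85 and 1.89 CPM in controls (log2 fold change 1.31, SE 0.32, adjusted p = 0.0177), and Olfr610 had 5.12, 4.89 and 6.82 CPM with cis-3-hexenol, against 1.75, 3.52 and 2.65 CPM in controls (adjusted p = 0.0188). Calls of all 3 ended without cis-3-hexenol 3, and those of Olfr609 and Olfr610 also without control 1. Their adjusted p then reached 0.077 for Olfr616, 0.0924 for Olfr609 and 0.0985 for Olfr610.

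Nqo1 and Acsm4, markers of the dorsal zone, moved with control 1 in the same way. In a list of 4 dorsal and ventral zone genes, 0 rose and 1 fell, a call that was not stable, and the median log2 fold change was 0.21. Nqo1, a quinone reductase found in dorsal neurons, had 366, 379.9 and 464 CPM with cis-3-hexenol, against 155, 414 and 446 CPM in controls, and Acsm4, an acyl-CoA synthetase of the dorsal epithelium, had 555, 589 and 696 CPM with cis-3-hexenol, against 246, 537 and 629.7 CPM in controls. For both genes control 1 was lowest, the groups overlapped and neither was called (log2 fold change 0.25, SE 0.29, adjusted p = 0.617 for Nqo1 and log2 fold change 0.38, SE 0.25, adjusted p = 0.354 for Acsm4). Without control 1 the median fold change of class I receptors was 0.46 and 1 of them was called, and without control 2 these were 1.06 and 23. That of class II receptors was 0.36 without control 1, with 51 called. The part that the dorsal share of each sample had in the class I values was not tested.

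**Figure D2:**
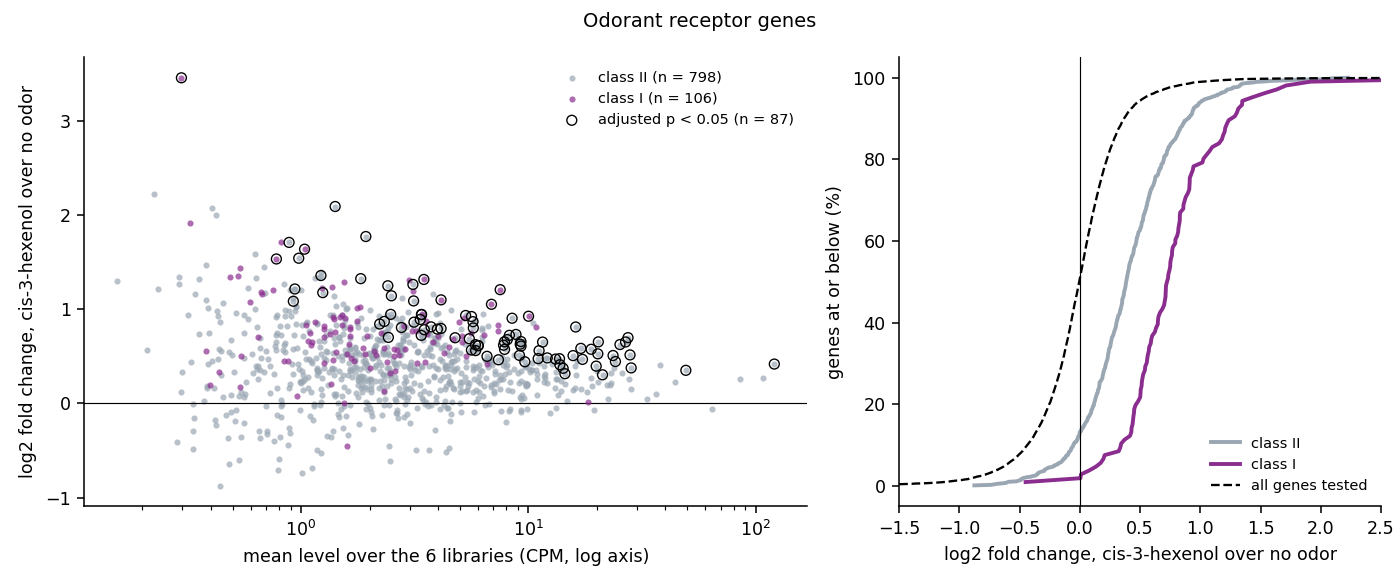
Left, log2 fold change of each receptor, cis-3-hexenol over no odor, against its mean level over the 6 libraries (CPM, log axis), by class, with circles round the 87 receptors called; right, the cumulative share of receptors and of all genes at or below each log2 fold change. The median is 0.73 for the 106 class I receptors, 0.38 for the 798 class II receptors and -0.01 for all genes.

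Trace amine-associated receptors, a small second receptor family for amines, all had positive fold changes, 8 of 8 tested, with a median of 0.87. The test called 2, Taar7f (log2 fold change 0.98, SE 0.28, adjusted p = 0.0324) and Taar2 (log2 fold change 1.06, SE 0.32, adjusted p = 0.044), and their calls held in 1 and 0 of the 6 fits, with adjusted p up to 0.16 and 0.192. Their summed level was 14.0 to 16.9 CPM with cis-3-hexenol and 8.34 to 11.7 CPM in controls. Clustered protocadherins, adhesion proteins that give each neuron an identity, had 7 calls higher and 1 lower of 53 tested, with a median of 0.27. Of all genes 5.56% were called higher and 6.65% lower. Pcdhb1 had 20.2, 16.5 and 20.3 CPM with cis-3-hexenol, against 9.01, 15.3 and 9.66 CPM in controls (log2 fold change 0.75, SE 0.16, adjusted p = 0.00972), a call that ended without cis-3-hexenol 3 (adjusted p 0.0005 to 0.0559). Isoforms of the alpha and gamma clusters share exons, so that reads of Pcdhga6 (log2 fold change 1.34) and Pcdhgb2 (log2 fold change 1.01), both called, may be exchanged with those of other isoforms. Both calls held in 1 of the 6 fits (adjusted p up to 0.171 and 0.161).

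Some signalling components downstream of the receptors rose, while the main marker of mature neurons fell. Omp (olfactory marker protein) had 10318, 11025 and 10193 CPM in the 3 cis-3-hexenol libraries, against 12255, 13314 and 13649 CPM in the 3 control libraries. Every cis-3-hexenol library lay below every control (log2 fold change -0.31, SE 0.05, adjusted p = 0.00417, stable). Of 20 genes of odor transduction and the mature neuron, 8 rose and 2 fell, with a median log2 fold change of 0.15. Ric8b, a chaperone and exchange factor of the olfactory G protein (log2 fold change 0.47, SE 0.10, adjusted p = 0.00782), Pde1c, the phosphodiesterase of the cilia (log2 fold change 0.36, SE 0.08, adjusted p = 0.0109), and Stoml3, a stomatin-like membrane protein (log2 fold change 0.29, SE 0.07, adjusted p = 0.0206), rose. Adcy3, the cyclase, had 833, 843 and 850.2 CPM with cis-3-hexenol, against 612, 761 and 575 CPM in controls, and Cnga2, the main subunit of the cyclic nucleotide channel, had 749, 769 and 784 CPM with cis-3-hexenol, against 542, 697 and 606 CPM in controls. Both also rose (log2 fold change 0.38, SE 0.10, adjusted p = 0.0227 for Adcy3 and log2 fold change 0.32, SE 0.09, adjusted p = 0.0255 for Cnga2), as did Ano2, the chloride channel (log2 fold change 0.39, SE 0.10, adjusted p = 0.023). None of the 8 rises was stable, and 0 remained called without cis-3-hexenol 3 and 2 without control 1 or cis-3-hexenol 1. The adjusted p over the 6 fits ran 0.00165 to 0.0513 for Ric8b, 0.0129 to 0.0659 for Pde1c, 0.00191 to 0.0843 for Stoml3, 0.00201 to 0.0869 for Adcy3, 0.00379 to 0.102 for Cnga2 and 0.00492 to 0.0817 for Ano2. Gnal, the alpha subunit of the olfactory G protein, was not called (log2 fold change 0.02, SE 0.09, adjusted p = 0.92).

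Some regulators of receptor choice and trafficking fell. Of 25 tested, 0 rose and 9 fell, with a median of -0.08, and 9 had a positive fold change. Atf5, a stress-responsive transcription factor induced in neurons by receptor protein and needed for their maturation, had 109.6, 109 and 91.4 CPM in the 3 cis-3-hexenol libraries, against 171, 158 and 188 CPM in the 3 control libraries. The groups were far apart (log2 fold change -0.74, SE 0.09, adjusted p = 0.0018, stable). Ebf3, an Olf/EBF factor that binds receptor promoters (log2 fold change -0.52, SE 0.08, adjusted p = 0.00361), and Trim66, a chromatin regulator of olfactory neurons (log2 fold change -0.53, SE 0.09, adjusted p = 0.00393), fell. The nuclear factor I members Nfix (log2 fold change -0.43, SE 0.07, adjusted p = 0.00361) and Nfib (log2 fold change -0.45, SE 0.08, adjusted p = 0.00602) fell as well. So did Bptf, a subunit of the NURF remodelling complex (log2 fold change -0.80, SE 0.14, adjusted p = 0.00507), and Cbx5, the heterochromatin protein HP1 alpha (log2 fold change -0.45, SE 0.09, adjusted p = 0.00618). These 7 calls were stable. After offsets for transcript length and GC content 5 of the list fell and 1 rose, the median log2 fold change was -0.00055, and Trim66 and Nfix were no longer called (log2 fold changes of -0.19 and -0.19, adjusted p = 0.061 and 0.0969). Lhx2, Ebf1 and Ldb1, which assemble on receptor enhancers, had log2 fold changes of -0.08, -0.06 and -0.08 and adjusted p of 0.496, 0.536 and 0.41.

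Many genes of large chromatin proteins fell. In a list of 32 members of the histone methyltransferase, demethylase, CHD, SWI/SNF, acetyltransferase and TET families, written after their values were seen, 0 rose and 18 fell, and 11 of the 18 were stable. Kmt2a, a histone H3 lysine methyltransferase, had 54.8, 56.3 and 47.9 CPM with cis-3-hexenol, against 93.3, 79.0 and 100.5 CPM in controls. The highest cis-3-hexenol library was below the lowest control (log2 fold change -0.78, SE 0.10, adjusted p = 0.00184). Its relative Kmt2d (log2 fold change -0.84, SE 0.12, adjusted p = 0.00336), Chd4, the ATPase of the NuRD complex (log2 fold change -0.69, SE 0.11, adjusted p = 0.00361), and Arid1a, a SWI/SNF subunit (log2 fold change -0.61, SE 0.10, adjusted p = 0.00362), also fell. The SWI/SNF subunits Smarcb1 and Smarcc1 had log2 fold changes of -0.10 and 0.04 (adjusted p = 0.427 and 0.77). The median log2 fold change of the list was -0.45, and 11 genes fell without cis-3-hexenol 3. After offsets for transcript length and GC content the median was -0.11, with 4 falls, Kmt2a, Kmt2d and Chd4 among them, while Arid1a was not called (log2 fold change -0.24, adjusted p = 0.0745). The median transcript of the list has 8683 bases, against 3082 bases over all genes.

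**Figure D3:**
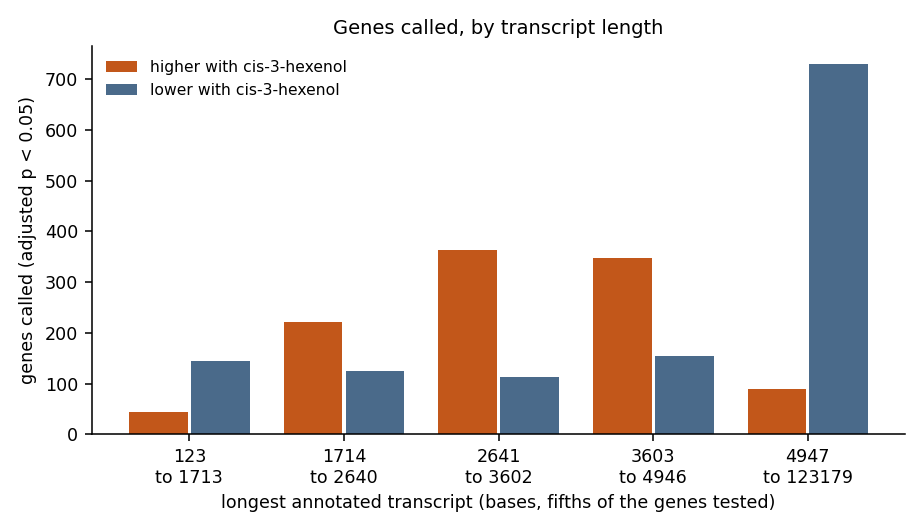
Genes called higher and lower with cis-3-hexenol, in 5 groups of nearly equal size by the longest annotated transcript in bases. Among genes of 4947 to 123179 bases 89 rose and 729 fell, and among genes of 2641 to 3602 bases 364 rose and 113 fell.

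Direction differed by transcript length over the whole transcriptome, though not in 1 order, and fold change correlated more with GC content than with length. Of 18698 tested genes with a known length, the 3740 longest, from 4947 bases, gave 729 falls and 89 rises, with a median log2 fold change of -0.15. Genes of 2641 to 3602 bases gave 364 rises and 113 falls (median 0.07), and the 3740 shortest, up to 1713 bases, gave 43 rises and 145 falls (median -0.07). Spearman's correlation across genes, which are not independent replicates, was -0.08 between fold change and length and -0.27 between fold change and GC content. Macf1, a giant linker of microtubules and actin, had 59.3, 56.0 and 56.7 CPM with cis-3-hexenol, against 82.8, 83.4 and 99.6 CPM in controls (log2 fold change -0.63, SE 0.07, adjusted p = 0.0018), and Prrc2a, a proline-rich RNA-binding protein, had 21.8, 21.3 and 17.8 CPM with cis-3-hexenol, against 44.7, 41.1 and 53.8 CPM in controls (log2 fold change -1.20, SE 0.13, adjusted p = 0.0018). Both kept their calls in all 6 fits and after the offsets. With the offsets 835 genes rose and 576 fell, 983 of the 2341 calls remained, and receptors had 33 rises, 1 fall and a median log2 fold change of 0.30. Of all calls 59.2% were then rises, against 45.5% without the offsets. Whether length, GC content or RNA integrity carries a part of the falls was not tested beyond these offsets.

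Of the 10 largest falls by fold among genes with non-overlapping groups and a mean count of at least 20, Lars2 and Prrc2a were stable. Lars2, the mitochondrial leucyl-tRNA synthetase, had 309.5, 304 and 278 CPM with cis-3-hexenol, against 589.6, 474 and 1001 CPM in controls (log2 fold change -1.21, SE 0.21, adjusted p = 0.00495), with control 3 highest. Others had lower levels: Mmrn2, an endothelial matrix protein, Sox6, a transcription factor, Polq, a DNA polymerase, Acacb, an acetyl-CoA carboxylase, Sash1, a scaffold protein, Bpifa2, a secreted protein, and Treml1, a platelet receptor, had log2 fold changes of -1.38, -1.37, -1.28, -1.27, -1.22, -1.21 and -1.19. Each of these 7 lost its call in 1 to 5 of the 6 fits, Sox6 in 1 of them (adjusted p 0.00393 to 0.0533, above 0.05 without cis-3-hexenol 3). Among the largest rises, the zinc finger gene Zfp973 had 69, 92 and 13 counts in the cis-3-hexenol libraries, against 1, 0 and 2 in the controls. That is a ratio of 65.0 after scaling for depth (95% exact interval from 21.9 to 318, counting error only), and the call was stable (adjusted p = 0.00883, up to 0.0344 in the 6 fits), with cis-3-hexenol 3 well below the other two.

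Some genes of the ciliary coat complex and of protein sorting rose. In lists written after their values were seen, 7 of 30 Bardet-Biedl and intraflagellar transport genes rose and 1 fell (median 0.14), and 4 of 18 retromer and vacuolar sorting genes rose and 0 fell (median 0.18). Bbs7, a subunit of the BBSome that moves membrane proteins in and out of cilia, had 56.3, 53.9 and 61.2 CPM with cis-3-hexenol, against 35.4, 41.7 and 36.3 CPM in controls (log2 fold change 0.60, SE 0.10, adjusted p = 0.00415). Bbs4 (log2 fold change 0.43, SE 0.08, adjusted p = 0.00656) and Bbs9 (log2 fold change 0.42, SE 0.08, adjusted p = 0.00734), other BBSome subunits, rose. The retromer subunits Vps35 (log2 fold change 0.50, SE 0.09, adjusted p = 0.00491) and Vps26a (log2 fold change 0.44, SE 0.08, adjusted p = 0.00556), which return cargo from endosomes, rose, as did Vps11, of the lysosomal tethering complexes (log2 fold change 0.43, SE 0.09, adjusted p = 0.0108). All 6 calls were stable. Of the transport genes proper, Ift122 rose (log2 fold change 0.36, SE 0.11, adjusted p = 0.0362) and the motor subunit Kif3b fell (log2 fold change -0.33, SE 0.08, adjusted p = 0.0201). Their adjusted p ran 0.00498 to 0.123 for Ift122 and 0.00556 to 0.0813 for Kif3b over the 6 fits, and 3 of the 7 rises remained called without cis-3-hexenol 2 or 3.

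Il33 (ENSMUSG00000024810), an alarmin cytokine stored in the nuclei of epithelial cells, was among the genes with the smallest p and was chosen for description after its values were seen. It had 502, 473 and 515 CPM in the 3 cis-3-hexenol libraries, against 299, 344 and 307 CPM in the 3 control libraries, that is 496 ± 21.2 CPM with cis-3-hexenol and 316 ± 24.4 CPM without odor (SD, n = 3 each). No library of one group reached the other (log2 fold change 0.65, SE 0.08, adjusted p = 0.0018, stable). Alox15, a lipoxygenase of lipid mediator synthesis, had 129, 119 and 126 CPM with cis-3-hexenol, against 76.6, 93.9 and 82.8 CPM in controls (log2 fold change 0.56, SE 0.09, adjusted p = 0.00362), and Cd36, a fatty acid receptor found in a subset of olfactory neurons, had 169, 159 and 181 CPM with cis-3-hexenol, against 107, 142 and 120.3 CPM in controls (log2 fold change 0.46, SE 0.09, adjusted p = 0.00752). Both calls were stable, and that of Cd36 ended after the length and GC offsets. Interferon-stimulated genes did not follow, with 0 of 23 higher and 2 lower, Rsad2 (log2 fold change -0.73, SE 0.19, adjusted p = 0.023) and Bst2 (log2 fold change -0.60, SE 0.17, adjusted p = 0.0335), whose adjusted p reached 0.114 and 0.153 without 1 library.

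Targets of NRF2, the transcription factor of the oxidative and electrophile response, gave 5 rises and 1 fall of 21 tested, with a median of 0.12. Of all genes 5.56% rose and 6.65% fell. G6pdx, the enzyme that feeds the pentose phosphate pathway and makes NADPH, had 147, 149 and 157 CPM with cis-3-hexenol, against 93.3, 112 and 106 CPM in controls (log2 fold change 0.54, SE 0.08, adjusted p = 0.00337). Srxn1, sulfiredoxin, had 123, 119 and 123 CPM with cis-3-hexenol, against 90.8, 89.9 and 94.6 CPM in controls (log2 fold change 0.40, SE 0.06, adjusted p = 0.00361), and Osgin1, an oxidative stress-induced growth inhibitor, had 81.2, 67.8 and 72.0 CPM with cis-3-hexenol, against 46.2, 58.0 and 57.4 CPM in controls (log2 fold change 0.45, SE 0.09, adjusted p = 0.00734). In all 3 the groups did not overlap and the calls were stable. Gclc, the catalytic subunit of glutathione synthesis, rose (log2 fold change 0.43, SE 0.09, adjusted p = 0.00747), as did Txnrd1, thioredoxin reductase (log2 fold change 0.36, SE 0.08, adjusted p = 0.00868), and both calls ended without cis-3-hexenol 3 (adjusted p = 0.0532 and 0.0546). Slc7a11, the cystine transporter, fell, with 1.88, 1.88 and 2.81 CPM with cis-3-hexenol, against 3.55, 3.28 and 6.06 CPM in controls (log2 fold change -0.96, SE 0.28, adjusted p = 0.0343), and this call held in 2 of the 6 fits (adjusted p 0.0178 to 0.161). Hmox1, heme oxygenase, a much-used readout of the same factor, had 52.1, 44.6 and 47.5 CPM with cis-3-hexenol, against 40.4, 42.1 and 45.1 CPM in controls (log2 fold change 0.18, SE 0.09, adjusted p = 0.216), and Gclm, the modifier subunit of glutathione synthesis, was not called either (log2 fold change 0.09, SE 0.06, adjusted p = 0.382).

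The promoters of the 3 stable NRF2 targets are shown because the genes rose together. They are from RefSeq on build GRCm38.p6 and run from 250 bases before to 50 bases after the annotated start, 5′ to 3′ on the strand of the gene. Capitals mark the core of the antioxidant response element, TGACNNNGC, searched on both strands.
G6pdx (chrX:74428831-74429130, minus strand): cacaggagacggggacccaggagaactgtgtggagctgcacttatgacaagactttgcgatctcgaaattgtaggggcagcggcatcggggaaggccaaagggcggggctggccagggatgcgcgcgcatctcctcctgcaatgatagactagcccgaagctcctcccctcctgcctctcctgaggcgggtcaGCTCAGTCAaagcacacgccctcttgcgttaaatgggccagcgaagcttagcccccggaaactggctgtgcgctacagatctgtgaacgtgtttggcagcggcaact
Srxn1 (chr2:152105274-152105573, plus strand): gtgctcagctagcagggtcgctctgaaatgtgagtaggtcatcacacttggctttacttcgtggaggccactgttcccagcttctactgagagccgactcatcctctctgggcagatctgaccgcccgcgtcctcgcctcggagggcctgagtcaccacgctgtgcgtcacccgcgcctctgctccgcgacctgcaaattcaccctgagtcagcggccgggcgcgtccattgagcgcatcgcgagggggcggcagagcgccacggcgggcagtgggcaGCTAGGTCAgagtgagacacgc
Osgin1 (chr8:119436897-119437196, plus strand): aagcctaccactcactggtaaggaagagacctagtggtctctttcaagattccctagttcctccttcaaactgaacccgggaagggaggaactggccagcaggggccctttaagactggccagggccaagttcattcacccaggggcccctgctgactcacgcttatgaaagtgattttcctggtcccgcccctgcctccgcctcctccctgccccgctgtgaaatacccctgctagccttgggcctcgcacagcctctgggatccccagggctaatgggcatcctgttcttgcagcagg
The core was found at base -57 of G6pdx, reading on the opposite strand as GCTCAGTCA, and at base 29 after the start of Srxn1 as GCTAGGTCA, and these letters are not in the window of Osgin1. Of 17 tested NRF2 targets with a promoter in the table, 9 (52.9%) held the core, against 13.6% of 16879 promoters of tested genes and 12.4% of all 32851 promoters of this length. The list holds known targets of the factor that acts through this element, so its share is no test of a response to cis-3-hexenol. Genes were counted for the lists and promoters for the comparison sets. The palindromic cyclic AMP response element TGACGTCA was in 0 of the 6 promoters of activity-raised genes and in 2.66% of promoters of tested genes.

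Some aldehyde dehydrogenases rose, while alcohol dehydrogenases had a median log2 fold change of -0.03. Of 4 alcohol dehydrogenases tested, 1 rose, the hydroxyacid-oxoacid transhydrogenase Adhfe1 (log2 fold change 0.40, SE 0.12, adjusted p = 0.0385), called in 2 of the 6 fits (adjusted p 0.016 to 0.15). Adh7, the retinol and alcohol dehydrogenase of epithelia, had 63.0, 61.1 and 77.0 CPM with cis-3-hexenol, against 62.6, 71.0 and 72.6 CPM in controls and overlapped between groups (log2 fold change -0.03, SE 0.12, adjusted p = 0.89). Of 19 aldehyde dehydrogenases, 3 rose, against 5.56% of all genes, and 0 fell (median 0.09). Aldh6a1, a mitochondrial enzyme of valine breakdown, had 134, 136 and 157 CPM with cis-3-hexenol, against 75.2, 94.2 and 98.8 CPM in controls (log2 fold change 0.67, SE 0.10, adjusted p = 0.00337, stable), and Aldh3a2, the fatty aldehyde dehydrogenase, had 102, 101 and 107 CPM with cis-3-hexenol, against 74.6, 83.0 and 81.9 CPM in controls (log2 fold change 0.37, SE 0.07, adjusted p = 0.00662, stable). Aldh18a1, of proline synthesis, rose (log2 fold change 0.36, SE 0.08, adjusted p = 0.00985, but adjusted p = 0.0654 without cis-3-hexenol 3), and Aldh1a1, a retinal and aldehyde oxidising enzyme, had 231, 222 and 237 CPM with cis-3-hexenol, against 183, 201 and 281 CPM in controls (log2 fold change 0.06, SE 0.11, adjusted p = 0.803). Of 13 aldo-keto and carbonyl reductases 0 were called.

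Nasal enzymes of foreign compounds gave 7 rises and 1 fall of 37 (median 0.16), against 5.56% and 6.65% of all genes. Ugt2a2, an olfactory glucuronosyltransferase, had 364, 333 and 385 CPM with cis-3-hexenol, against 178, 279 and 246 CPM in controls (log2 fold change 0.62, SE 0.12, adjusted p = 0.00734, stable). It shares exons with Ugt2a1 (log2 fold change 0.33, SE 0.10, adjusted p = 0.0385), so their reads may be split between them. The cytochromes P450 Cyp4a12b (log2 fold change 0.63, SE 0.14, adjusted p = 0.0116), Cyp4b1 (log2 fold change 0.30, SE 0.07, adjusted p = 0.0116) and Cyp2f2 (log2 fold change 0.44, SE 0.11, adjusted p = 0.0171) rose, and all 3 calls ended without cis-3-hexenol 3, with adjusted p up to 0.0634, 0.0747 and 0.0811. Control 1 was the lowest library for Ugt2a2, Cyp4a12b, Cyp4b1 and Cyp2f2, and 1 of the 7 rises remained called without cis-3-hexenol 3. Markers of sustentacular cells, in which many of these enzymes reside, summed to 21404 to 22092 CPM with cis-3-hexenol and to 16331, 21441 and 23994 CPM in controls 1, 2 and 3, and their part in the enzyme values was not tested. Of the 12 sustentacular markers 0 rose and 1 fell, Muc2, a secreted mucin (log2 fold change -0.42, SE 0.11, adjusted p = 0.0271), and this call ended in 4 of the 6 fits.

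**Figure D4:**
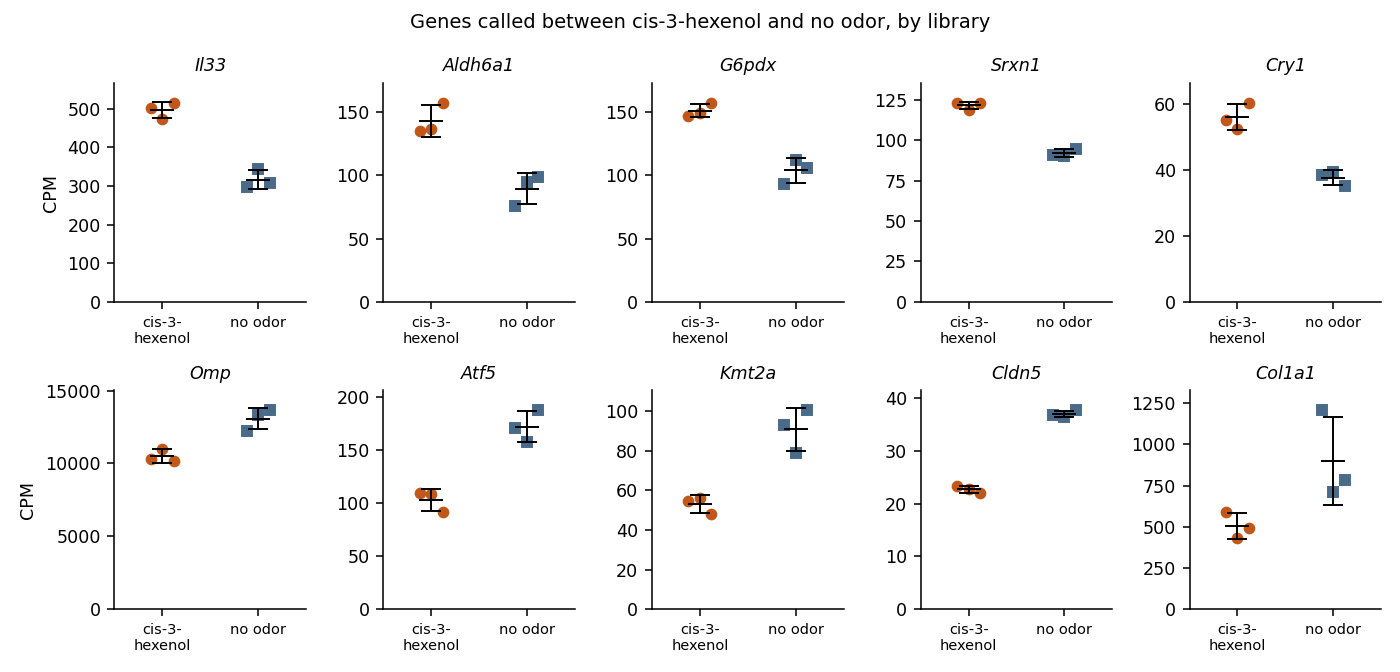
Levels of 10 named genes in CPM (linear axes from 0) in the 3 cis-3-hexenol libraries (circles) and the 3 no-odor libraries (squares), with bars for the mean ± SD. Il33, Aldh6a1, G6pdx, Srxn1 and Cry1 are higher with cis-3-hexenol and Omp, Atf5, Kmt2a, Cldn5 and Col1a1 lower, with no overlap between the groups.

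Many vessel and matrix genes fell with cis-3-hexenol. Of 10 endothelial genes, 0 rose and 6 fell, with a median of -0.69. Cldn5, the claudin of endothelial tight junctions, had 23.3, 22.8 and 21.9 CPM in the 3 cis-3-hexenol libraries, against 36.9, 36.5 and 37.7 CPM in the 3 control libraries. The spread within each group was small beside the gap (log2 fold change -0.71, SE 0.08, adjusted p = 0.0018). Esam, an endothelial adhesion molecule, had 2.67, 2.97 and 2.17 CPM with cis-3-hexenol, against 5.38, 5.55 and 5.07 CPM in controls (log2 fold change -1.04, SE 0.19, adjusted p = 0.00571), and Egfl7, a secreted vessel factor, 13.2, 14.5 and 14.6 CPM with cis-3-hexenol, against 29.0, 18.2 and 20.6 CPM in controls (log2 fold change -0.68, SE 0.14, adjusted p = 0.00907). These 3 calls were stable, while Pecam1, the usual endothelial marker, had 5.65, 4.99 and 4.52 CPM with cis-3-hexenol, against 7.95, 4.73 and 4.97 CPM in controls (log2 fold change -0.23, SE 0.19, adjusted p = 0.467). Without control 1 or any 1 of the cis-3-hexenol libraries 3 of the 10 were called. The summed level of the list was 58.5 to 64.0 CPM with cis-3-hexenol and 86.1 to 105 CPM in controls.

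Of 40 collagen genes, 0 rose and 21 fell, and the median was -0.58. Col1a1, of type I collagen, had 587, 433 and 494 CPM in the 3 cis-3-hexenol libraries, against 1208, 709 and 786 CPM in the 3 control libraries. Its control 1 was highest and the groups did not overlap (log2 fold change -0.83, SE 0.16, adjusted p = 0.00606). Col1a2, its partner chain (log2 fold change -0.73, SE 0.13, adjusted p = 0.00466), and Col5a1, of type V (log2 fold change -0.89, SE 0.15, adjusted p = 0.00441), fell. The cartilage collagens Col11a2 (log2 fold change -0.96, SE 0.17, adjusted p = 0.00507) and Col2a1 (log2 fold change -0.89, SE 0.19, adjusted p = 0.00954) fell. Of the 21 calls 10 were stable, these 5 among them. The count of falls was 11 without cis-3-hexenol 3, 12 without control 3 or cis-3-hexenol 2, 23 without control 2, and 11 after the length and GC offsets, where the median was -0.32. Sparc, a collagen-binding matrix protein of bone, had 784, 685 and 710.0 CPM with cis-3-hexenol, against 1237, 878 and 1236 CPM in controls (log2 fold change -0.62, SE 0.13, adjusted p = 0.00752, stable), and Dmp1 (log2 fold change -0.61, SE 0.16, adjusted p = 0.0261) and Runx2 (log2 fold change -0.40, SE 0.11, adjusted p = 0.0263), of bone cells, fell, calls that held in 1 and 2 of the 6 fits with adjusted p up to 0.12 and 0.107. The 18 bone genes had 0 rises, 6 falls and a median of -0.38, with 2 falls without control 1 or cis-3-hexenol 3, and summed to 2235 to 2656 CPM with cis-3-hexenol and 2943 to 4392 CPM in controls.

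Some red cell genes fell as well. Hbb-bs, adult beta-globin, had 592, 489 and 757 CPM with cis-3-hexenol, against 1681, 825 and 991 CPM in controls (log2 fold change -0.93, SE 0.28, adjusted p = 0.0408), and 5 of 10 red cell genes fell and 0 rose, with a median of -0.86. Control 1 held the most globin, and without it 0 were called and the median log2 fold change was -0.43. The count was also 0 without any 1 of the cis-3-hexenol libraries, and 2 without control 3. The list summed to 1307 to 1960 CPM with cis-3-hexenol and to 4511, 2176 and 2510 CPM in controls 1, 2 and 3. Globin genes Hba-a1 and Hba-a2 are near-identical copies, and Hbb-bs and Hbb-bt are close relatives, so their reads may be exchanged. Neutrophil and marrow genes had a median of -0.38 with 0 of 13 called (the count was 2 without control 2), and the complement genes C1qa (log2 fold change -0.45, SE 0.14, adjusted p = 0.0409) and C1qb (log2 fold change -0.43, SE 0.13, adjusted p = 0.043) of macrophages fell, calls that held in 1 and 0 of the 6 fits with adjusted p up to 0.193 and 0.198. How much bone, blood or vessel each sample contained was not measured apart from these transcripts.

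Markers of other cell types of the epithelium gave calls too, where 5.56% of all genes tested rose and 6.65% fell. Counts of 1 or 2 in lists of this size are not read as a result about a cell type. Of 13 markers of immature neurons, 0 rose and 2 fell, Dcx (log2 fold change -0.35, SE 0.08, adjusted p = 0.014) and Stmn1 (log2 fold change -0.27, SE 0.08, adjusted p = 0.032), both of the growing cytoskeleton, with adjusted p up to 0.085 and 0.128 without 1 library, while Gap43 of growing axons had 291, 290.4 and 274 CPM with cis-3-hexenol, against 357, 272 and 315 CPM in controls (log2 fold change -0.14, SE 0.09, adjusted p = 0.32). Of 16 progenitor markers 0 were called (2 without control 2). Krt5 and Krt15, keratins of horizontal basal cells, fell (log2 fold change -0.31, SE 0.07, adjusted p = 0.0127 for Krt5 and log2 fold change -1.09, SE 0.33, adjusted p = 0.0413 for Krt15), 2 of 10 markers, with adjusted p 0.00595 to 0.0634 and 0.0496 to 0.131 over the 6 fits. Itpr3, a calcium channel of tuft and microvillar cells, fell (log2 fold change -0.79, SE 0.17, adjusted p = 0.00929, up to 0.0581 without cis-3-hexenol 3), 1 of 13 markers of these cells. Fabp7 (log2 fold change -0.33, SE 0.08, adjusted p = 0.0175) and Foxd3 (log2 fold change -0.79, SE 0.20, adjusted p = 0.0225) of ensheathing glia fell, 2 of 14, and their adjusted p reached 0.0694 and 0.086. Of 17 genes of motile cilia, 2 rose and 5 fell, and the stable call, the dynein gene Dnah11 (log2 fold change -0.57, SE 0.10, adjusted p = 0.00529), ended after length and GC offsets. Without cis-3-hexenol 3 these counts were 0 and 1. Axon guidance molecules gave 3 rises and 9 falls of 26, and 1 rise and 2 falls without cis-3-hexenol 3. Efna5, an ephrin (log2 fold change -0.64, SE 0.11, adjusted p = 0.00466), and Tenm4, a teneurin (log2 fold change -0.69, SE 0.13, adjusted p = 0.00529), were stable, although the call of Tenm4 ended after the length and GC offsets (log2 fold change -0.30, adjusted p = 0.0727), and Unc5b, a netrin receptor, was not (log2 fold change -0.41, SE 0.09, adjusted p = 0.0118, 0.00914 to 0.0669 over the 6 fits).

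Gland proteins give a case where 1 library decides the value. Mup4, a major urinary protein secreted in the nose, had 153, 7.22 and 25.9 CPM with cis-3-hexenol, against 107, 215 and 7121 CPM in controls, and Pnliprp1, a gland lipase, had 0.784, 0.692 and 0.553 CPM with cis-3-hexenol, against 0.734, 0.723 and 42.3 CPM in controls. Control 3 alone was high for both, and the groups overlap without it. Both were called (log2 fold change -5.32, SE 1.35, adjusted p = 0.0209 for Mup4 and log2 fold change -4.42, SE 1.17, adjusted p = 0.025 for Pnliprp1), and these calls, like those of Dnase1 and Muc5b, ended without control 3. There 0 of 25 gland genes were called and the median log2 fold change of the list was -0.10 in place of -1.09. The odorant-binding protein gene Obp2a had 890.3, 23.6 and 49.2 CPM with cis-3-hexenol, against 220.1, 954 and 14293 CPM in controls and was not called (log2 fold change -4.01, SE 1.54, adjusted p = 0.102).

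A clock repressor was higher. Cry1, a cryptochrome of the circadian clock, had 55.1, 52.5 and 60.3 CPM with cis-3-hexenol, against 38.5, 39.5 and 35.0 CPM in controls (log2 fold change 0.57, SE 0.10, adjusted p = 0.00428, stable). Of 19 clock genes 3 rose and 2 fell, against 5.56% and 6.65% of all genes, counts too small to be read as a result about the list. Per3, a period protein (log2 fold change -0.44, SE 0.11, adjusted p = 0.0207), and Clock, an activator of the clock (log2 fold change -0.35, SE 0.10, adjusted p = 0.0406), fell, with adjusted p up to 0.107 and 0.177 without 1 library. The hour of collection is not in the labels. Of 29 genes of fatty acid and sterol synthesis 3 rose and 5 fell, against the same shares of all genes. Scd1 and Scd2, stearoyl-CoA desaturases, fell (log2 fold change -0.46, SE 0.08, adjusted p = 0.00441 for Scd1 and log2 fold change -0.43, SE 0.08, adjusted p = 0.00608 for Scd2), both stable. Fasn, fatty acid synthase, fell (log2 fold change -0.43, SE 0.11, adjusted p = 0.0187), while Nsdhl, of cholesterol synthesis, rose (log2 fold change 0.37, SE 0.08, adjusted p = 0.0105). The calls of Fasn and Nsdhl ended without cis-3-hexenol 3 (adjusted p 0.00133 to 0.0873 and 0.0114 to 0.0601).

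Mitochondrially encoded transcripts did not differ beyond the spread between libraries. Their share of counts was 0.797%, 0.811% and 0.729% with cis-3-hexenol, against 0.872%, 0.915% and 0.595% in controls (exact two-sided permutation test, p = 1), and 0 of 15 were called. The 3 cis-3-hexenol libraries lay below all 3 controls for 2 of the 15, against 15.5% of all genes. Nuclear genes of the respiratory chain gave 3 rises and 1 fall of 79, lower shares than the 5.56% and 6.65% of all genes. The stable call was Ndufs1, a subunit of complex I (log2 fold change 0.47, SE 0.08, adjusted p = 0.00417). Cs, citrate synthase of the Krebs cycle, rose (log2 fold change 0.33, SE 0.06, adjusted p = 0.00664, stable). Of 81 cytosolic ribosomal protein genes 0 rose and 6 fell, near the 6.65% of all genes that fell. Rpl8 (log2 fold change -0.30, SE 0.07, adjusted p = 0.0161) and Rpsa (log2 fold change -0.31, SE 0.08, adjusted p = 0.0197) were among the 6. The median log2 fold change of the 81 was -0.11, and the falls numbered 0 without control 3 or cis-3-hexenol 3. Of 15 heat shock genes 1 rose, Hspa4l (log2 fold change 0.20, SE 0.06, adjusted p = 0.0385), called in 0 of the 6 fits, while the near-identical Hspa1a and Hspa1b were high in cis-3-hexenol 1 alone (68.4 and 88.1 CPM, against 22.6 to 29.7 CPM in the 2 other cis-3-hexenol libraries and 16.6 to 26.6 CPM in controls) and were not called. Of 20 genes of the unfolded protein response 0 rose and 1 fell, Creld2 (log2 fold change -0.28, SE 0.08, adjusted p = 0.0319). Of 14 glucocorticoid-responsive genes 2 rose, Sgk1 (log2 fold change 0.35, SE 0.09, adjusted p = 0.0241) and Dusp1, and Klf9 fell (log2 fold change -0.40, SE 0.12, adjusted p = 0.0451). None of these 4 calls was stable, with adjusted p up to 0.158 for Creld2, 0.127 for Sgk1 and 0.189 for Klf9.

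**Figure D5:**
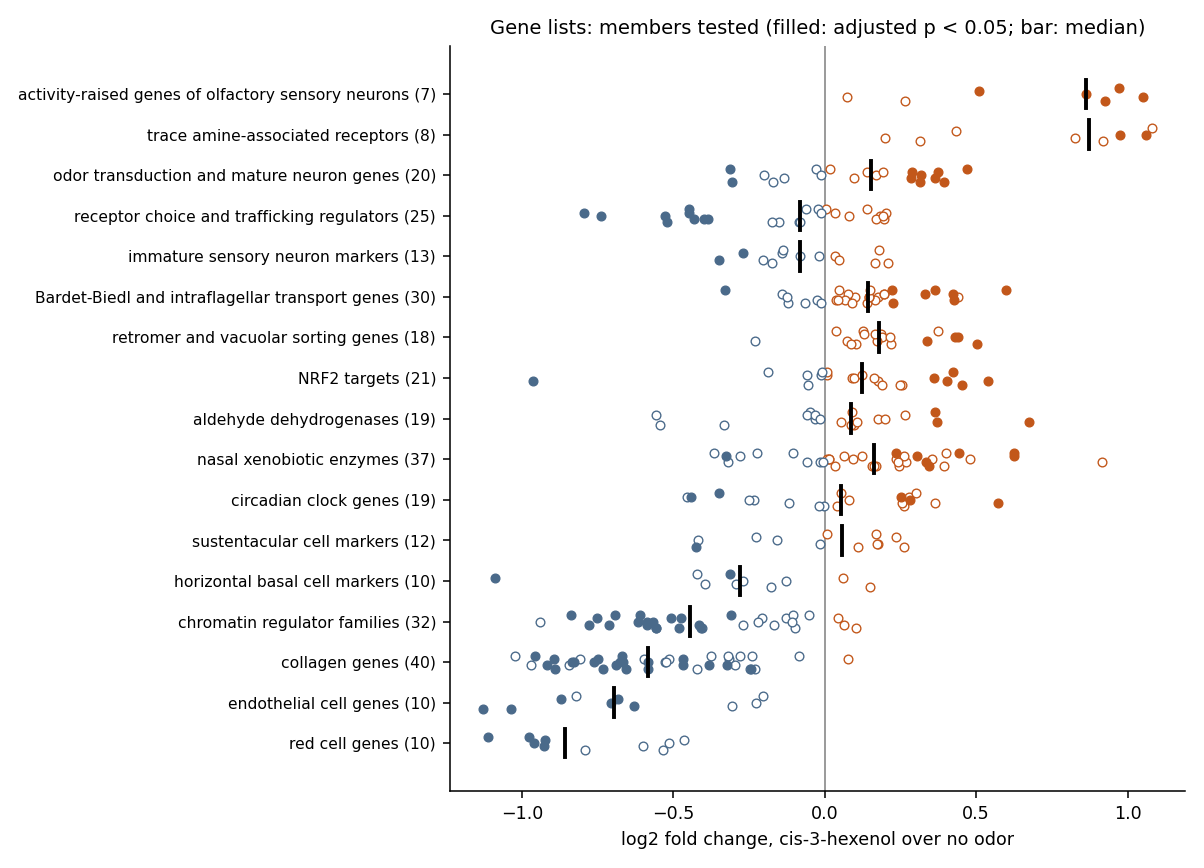
Log2 fold change, cis-3-hexenol over no odor, of each tested member of 17 gene lists (number tested in brackets), filled where the adjusted p was under 0.05, with a bar at the list's median. Medians run from 0.87 for trace amine-associated receptors to -0.86 for red cell genes.

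The octanal and mixture groups share their controls with cis-3-hexenol, so their values against no odor are given only side by side. The median log2 fold change of the receptors against the controls was 0.42 with cis-3-hexenol, 0.35 with octanal and 0.54 with the mixture, and that of the 7 activity genes was 0.86, 1.12 and 1.06 in the same order of groups. In that order the medians were -0.58, -0.75 and -0.86 for collagen genes and -0.69, -0.66 and -0.99 for endothelial genes. For bone genes they were -0.38, -0.78 and -0.61, so the falls of these 3 lists were not particular to cis-3-hexenol. Tested directly, 0 of 19175 genes differed between cis-3-hexenol and octanal at an adjusted p under 0.05 (0%), with 2496 at an unadjusted p under 0.05, a smallest adjusted p of 0.0769, and a median standard error of 0.12 for the log2 difference. DESeq2 called 240 genes and edgeR on the 6 libraries of these 2 groups alone called 803, so the count depends on these settings. Mpo, myeloperoxidase of neutrophils, had 12.3, 12.7 and 11.4 CPM with cis-3-hexenol, against 2.20, 5.52 and 3.36 CPM with octanal (log2 fold change over octanal 1.71, SE 0.27, adjusted p = 0.0769), and mt-Co3, of cytochrome oxidase, had 653, 686 and 523 CPM with cis-3-hexenol, against 278, 237 and 374 CPM with octanal (log2 fold change over octanal 1.07, SE 0.17, adjusted p = 0.0769). In neither gene did the groups overlap. Rgs7, a regulator of G protein signalling, and Car12, a carbonic anhydrase, had lower values (log2 fold change over octanal -1.07, SE 0.18, adjusted p = 0.0899 for Rgs7 and log2 fold change over octanal -0.65, SE 0.11, adjusted p = 0.0899 for Car12).

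Among the lists, marrow and mitochondrial transcripts had the largest median differences between the 2 single odorants, 1.46 and 0.92 on the log2 scale. The 13 marrow genes summed to 83.9 to 116 CPM with cis-3-hexenol and 39.0 to 58.9 CPM with octanal, and all 13 had an unadjusted p under 0.05 in that direction. The 15 mitochondrially encoded transcripts summed to 7194 to 8021 CPM with cis-3-hexenol and 3789 to 4632 CPM with octanal, with 14 of 15 at an unadjusted p under 0.05. Of the activity genes, Lrrc3b (log2 fold change over octanal -0.30, SE 0.14, adjusted p = 0.39) and Nr4a1 (log2 fold change over octanal -1.25, SE 0.31, adjusted p = 0.159) were not called against octanal. The class I receptors had a median log2 fold change over octanal of 0.34, 94 of 106 being higher with cis-3-hexenol, against 0.04 and 444 of 798 for class II. Of the 106, 4 were higher and 0 lower at an unadjusted p under 0.05, and 0 were called. The dorsal and ventral zone genes summed to 1005 to 1241 CPM with cis-3-hexenol and to 858, 920 and 1065 CPM with octanal. The part that the dorsal share of each sample had in this difference was not tested.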

How the data were processed

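Olfactory epithelium mRNA was sequenced as stranded poly(A) libraries on an Illumina NovaSeq instrument, per the labels' protocols. The authors deposited 1 table of estimated counts per gene for the 12 libraries of this batch, and the submitters' processing notes name STAR 2.7.10b, Salmon 1.10.1 and the build GRCm39. Of its values 12.6% were not whole and were rounded to counts (by at most 0.5). Of 57010 Ensembl IDs, 52029 had a symbol in GENCODE M21, and unnamed IDs held at most 0.374% of counts. No gene coordinates on GRCm39 are printed.

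Genes were filtered with filterByExpr, scaled by TMM and tested with edgeR 4.0.16 (R 4.3.3) by the quasi-likelihood F test in 1 fit of the 4 groups, with Benjamini-Hochberg adjustment over all 19175 genes and a threshold of 0.05. Standard errors were taken as fold change over the square root of F, on the log2 scale. Shares were compared by exact permutation. Group and library come from the labels. Alternatives were DESeq2 1.42.0, its size factors, other filters, a robust fit, the 6 libraries alone, a replicate block, offsets for transcript length and GC content (known for 97.5% of tested genes), and leaving out each library. Scripts were tested on simulated data. Intervals cover counting error only. Genes named are the 10 largest rises and falls, up to 4 called members of each list and a fixed set, and the other examples were chosen after their values were seen. Some genes that this rule names are not reported here. The members and lists were chosen with earlier results of these data known, and 4 lists (chromatin regulators, Bardet-Biedl and transport genes, retromer, zone genes) after their values were seen. Receptor class follows the family number in RefSeq synonyms, with families up to 42 as class I.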

Additional observations from a re-analysis of the deposited data

How the results depend on the processing

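The labels do not say whether the numbers 1 to 3 pair the libraries. Same-number deviations correlated at -0.18, 0.060 and 0.0028, and those of unlike number at -0.17 to 0.16. With 3 libraries a group these values cannot exclude a shared day or handling. A replicate block left 856 rises, 1027 falls and 66 higher receptors. Under DESeq2 size factors, a filter of 1 CPM in 3 libraries, a robust fit and DESeq2 the counts of rises, falls and receptors stayed within 1.5 times. With no filter on low counts 210 receptors rose, and offsets for transcript length and GC content left 576 falls, 33 higher receptors and 1 lower. With these offsets and the block there were 601 rises, 409 falls and 21 higher receptors, and fits of the 6 libraries alone gave 454, 593 and 46. Between cis-3-hexenol and octanal 581 genes were called with no filter, 6 with the block, 21 with offsets and block, 240 with DESeq2 and 803 with the 6 libraries alone. Leaving out 1 library gave 215 to 1448 rises, 318 to 1702 falls, 18 to 171 higher receptors, 0 to 1 lower, and 0 to 1 genes against octanal. The receptor share differed by 0.0946 to 0.145 percentage points and the mitochondrial share by -0.114 to 0.0453, changing sign without cis-3-hexenol 3, control 1 or control 2. Among genes not called, the log2 fold change also changed sign. It ran from -0.49 to 1.14 for Fos, -0.00917 to 0.766 for Egr1, -0.15 to 0.64 for Kirrel2, -0.147 to 0.0440 for Adh7, -0.0552 to 0.272 for Aldh1a1, -0.0842 to 0.517 for Nqo1, -0.21 to 0.10 for Mpo, -0.139 to 0.0579 for mt-Co3 and -0.29 to 0.15 for Rgs7. For Aldh1a1 it was -0.0254 with offsets and -0.0130 with offsets and block. Of 157 named called genes, 0 changed sign, 57 lost their call with the offsets and 95 without cis-3-hexenol 3. The cause of these changes was not tested. With 3 libraries a group, the median standard error of a receptor's log2 fold change was 0.15 at the highest levels and 0.46 at the lowest, so smaller changes were harder to detect in receptors of low level.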
